A study of Mus musculus with 2 samples.

Results

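*Isl1*, *Meis2*, *Ebf1* and *Foxp1* encode 4 transcription factors of the developing striatum, and their transcripts were 4 of the 500 genes of a MERFISH panel. MERFISH reads fluorescent barcodes over rounds of imaging and so counts single RNA molecules in place. The 4 genes were taken by name, with earlier results of these data known. The data were 1 coronal section of a control embryo (*Sst-Cre/tdTomato*) and 1 of a *Dnmt1* knockout (KO) embryo (*Sst-Cre/tdTomato/Dnmt1 loxP2*), both at E16.5 and cut at 10 µm from flash-frozen heads. Both embryos carried the *Sst-Cre* allele and the CAG-driven tdTomato reporter in the *Rosa26* locus, and only the KO carried the loxP-flanked *Dnmt1* alleles. Cre is made by cells that express *Sst*, so the allele is built to be lost in those cells and their descendants and not elsewhere. *Dnmt1* is not on the panel, so the genotype could not be checked here. With 1 section in each group no test between groups was possible, and the genotype cannot be told apart from the embryo, the imaging run and the plane of the section.

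The striatum is built from projection neurons that are born in the germinal zone of the ganglionic eminence and migrate outward into the mantle. Those of the direct pathway come to express the receptor *Drd1* and the peptide precursors *Tac1* and *Pdyn*, while those of the indirect pathway express *Drd2*, *Adora2a* and *Penk*. The LIM-homeodomain factor *Isl1* is known for its role in direct-pathway neurons and in forebrain cholinergic neurons, and *Ebf1* for the differentiation of young direct-pathway neurons as they enter the mantle. The TALE-homeodomain factor *Meis2* is made by progenitors and neurons of the lateral eminence and by parts of the cortex, and the forkhead factor *Foxp1* by striatal projection neurons of both pathways and by cortical projection neurons.

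In the GRCm39 annotation *Isl1* lies on chromosome 13 (116434817 to 116446235, minus strand), *Meis2* on chromosome 2 (115693062 to 115896341, minus strand), *Ebf1* on chromosome 11 (44508138 to 44898918, plus strand) and *Foxp1* on chromosome 6 (98902299 to 99499685, minus strand). The deposited molecule list ties each probe set to 1 transcript. These are ENSMUST00000036060 for *Isl1* with 6 exons, ENSMUST00000102538 for *Meis2* with 12, ENSMUST00000081265 for *Ebf1* with 16 and ENSMUST00000113326 for *Foxp1* with 18. The number and place of the probes on each transcript are not given in the sources used here. Probe sets differ in how well they detect their target, so the levels below are compared between places, cells and sections, and not from gene to gene.

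The control section held 108533 segmented cells and 2842355 panel transcripts, and the KO section 110004 cells and 13437174 transcripts. The 55231 control cells and 101250 KO cells with at least 20 panel transcripts were used. Levels are given as counts per 1000000 panel transcripts (CPM) summed over the cells named, with exact Poisson 95% intervals. The interval of a ratio of levels pairs opposite ends of the Poisson intervals of its levels. It is therefore wider than a 95% interval, and can include no difference where a 95% interval would not. Both kinds of interval cover counting error only. The median blank barcode, a code assigned to no gene, stood at 82.1 CPM in the control and 87.5 CPM in the KO. Between 82.7% and 87.7% of the decoded molecules of each of the 4 genes lay inside segmented cells, against 81.4% and 81.6% of all panel molecules.

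In both sections all 4 genes stood above their whole-section level in the striatal core. In this core, outlined from 8 other striatal genes, *Isl1* stood at 5467 CPM in the control (interval 5135 to 5815) and 7721 CPM in the KO (7565 to 7878). *Meis2* stood at 104837 and 118083 CPM. *Ebf1* stood at 12597 and 19312 CPM and *Foxp1* at 23357 and 36416 CPM. In the pallial region, which holds the developing cortex, the levels in control and KO were 644 and 576 CPM for *Isl1*, 22709 and 36448 CPM for *Meis2*, 293 and 521 CPM for *Ebf1*, and 1798 and 2740 CPM for *Foxp1*.

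**Figure D1:**
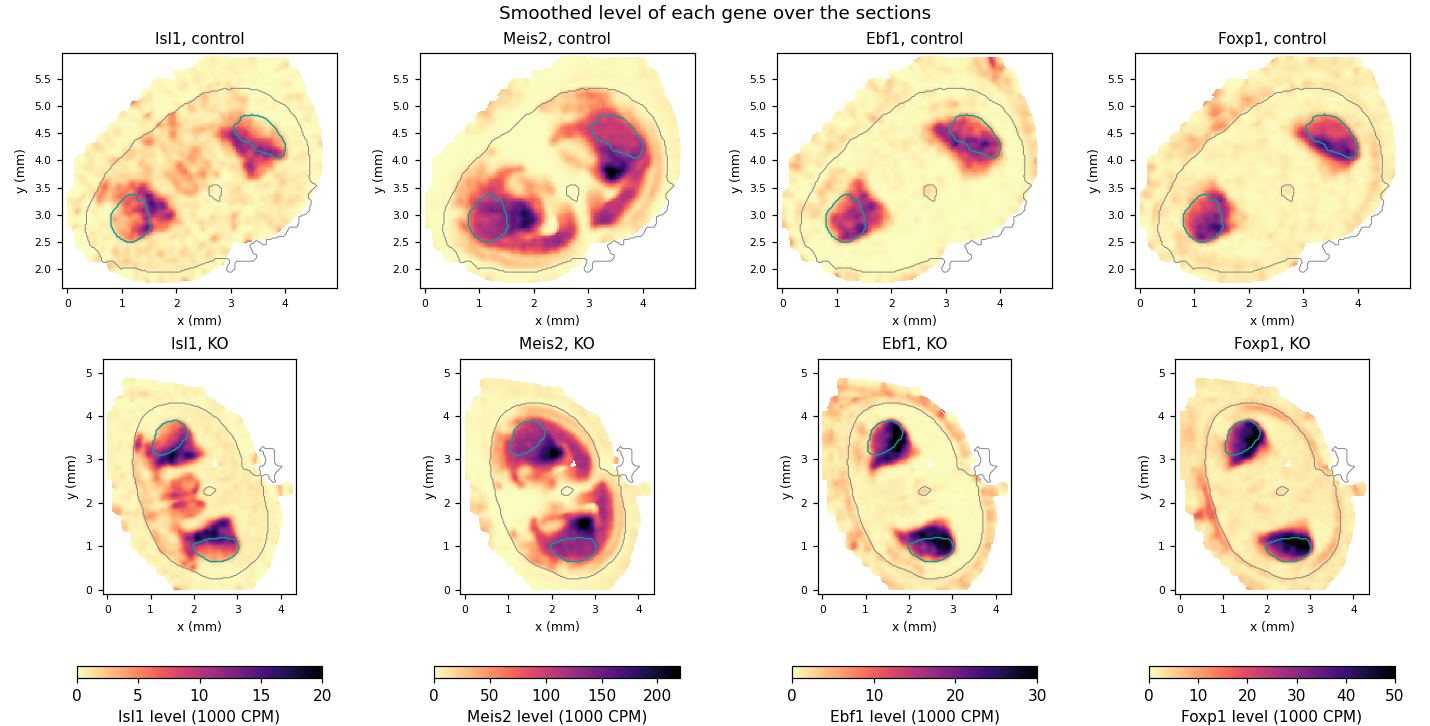
Level of *Isl1*, *Meis2*, *Ebf1* and *Foxp1*, on the CPM colour scale under each column, over the control (top) and KO (bottom) section, smoothed with an SD of 50 µm, with x and y in mm; the teal line outlines the striatal core and the grey line the brain. *Isl1* was highest along the inner side of the core, *Ebf1* and *Foxp1* within and beside it, and *Meis2* in a patch of the eminence. *Meis2* was also high in the core and, at a lower level, along the inner cortex.

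The core exceeded the pallial region most for *Ebf1*, by 42.9-fold in the control and 37.1-fold in the KO. For *Foxp1* the log2 ratio was 3.70 and 3.73. For *Isl1* the core exceeded the pallial region by 8.49-fold and 13.4-fold, and for *Meis2* by 4.62-fold and 3.24-fold. With a minimum of 50 transcripts per cell the control log2 ratio for *Meis2* was 2.92, against 2.21 with the minimum of 20. All 4 genes were thus past 2-fold in both sections, as were 18.5% of 426 control and 15.9% of 485 KO panel genes, those used for the outlines left out. *Ebf1* ranked 2 in both lists. Of 24 further genes of striatal neurons, 18 were on the panel and 10 of these had not been used for the outlines. Of the 10, 9 were past 2-fold higher in the core in each section, with a median log2 ratio of 2.16 in the control and 2.41 in the KO. The exception was *Sp8*, a zinc finger gene of the eminence and of some interneurons, at -0.51 and -1.27.

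The 2 striatal cores of a section served as a measure of its internal spread, not as replicates. For *Isl1* they stood at 5421 and 5491 CPM in the control and at 7755 and 7689 CPM in the KO. For *Ebf1* they stood at 12286 and 12763 CPM in the control and at 19385 and 19245 CPM in the KO, and for *Foxp1* at 24400 and 22798 CPM and at 37200 and 35707 CPM. The hemispheres of a section were thus much closer to each other than the sections were for these 3 genes. For *Meis2* the 4 cores stood at 108783, 102723, 120127 and 116234 CPM, a difference between hemispheres of a section nearer to that between the sections.

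The path from the germinal zone of the eminence to the core was divided into 5 zones. They were the germinal zone, outlined from progenitor genes and *Dlx1*, the inner, middle and outer band, and the core. The 3 bands were cut at equal steps of relative distance between germinal zone and core, in brain tissue outside the pallial region. Their areas differed, at 0.388, 0.274 and 0.242 mm2 in the control and 0.367, 0.282 and 0.257 mm2 in the KO. The division follows position and is used as a stand-in for maturation, since neurons move outward as they mature. Along it the 4 genes took different courses.

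*Isl1* was highest before the core. In the control it stood at 2431 CPM in the germinal zone, 3669 in the inner, 8526 in the middle and 8868 in the outer band, and 5467 in the core. In the KO it stood at 4532, 7516, 13331, 12768 and 7721 CPM. The middle and outer band together exceeded the core by 0.67 on the log2 scale in the control (interval 0.47 to 0.87) and by 0.76 in the KO (0.70 to 0.82). All 4 hemispheres showed this, with log2 ratios of 0.69 and 0.66 in the control and 0.74 and 0.77 in the KO. With wider and tighter outlines the ratio was 0.19 and 1.05 in the control and 0.45 and 0.92 in the KO. The control interval with the wider outlines spanned 0 (-0.02 to 0.40). The intervals of the ratio between the middle and the outer band spanned 0 in both sections.

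*Ebf1* came near its core level by the middle band. It stood at 1711 CPM in the control germinal zone, 5962 in the inner, 12280 in the middle and 13471 in the outer band, and 12597 in the core. In the KO it stood at 4303, 12471, 21426, 17805 and 19312 CPM. The log2 ratio of the middle and outer band together over the core was 0.04 in the control (interval -0.12 to 0.19) and 0.03 in the KO (-0.02 to 0.07). The control hemispheres lay on both sides of this, at -0.30 (-0.59 to -0.01) and 0.17 (-0.01 to 0.35). Outlines drawn 10 percentage points wider put the bands below the core, by control and KO ratios of -0.34 (-0.51 to -0.18) and -0.27 (-0.31 to -0.22), and tighter ones put them above it, at 0.19 (0.04 to 0.34) and 0.21 (0.16 to 0.25).

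*Foxp1* was low in the germinal zone and high in the outer band and core. The control hemispheres ordered these last differently, with 18604 CPM in the outer band and 24400 CPM in the core of hemisphere 1 and 24619 and 22798 CPM in hemisphere 2, while in both KO hemispheres the core was the higher. The control values were 2138, 5315, 17372, 22676 and 23357 CPM from the germinal zone to the core, and the KO values 3634, 9569, 30103, 32561 and 36416 CPM. From the inner to the middle band it differed by 3.27-fold in the control and 3.15-fold in the KO. The middle and outer band together stood below the core by a log2 ratio of -0.21 in the control (interval -0.33 to -0.09) and -0.22 in the KO (-0.25 to -0.19), opposite in direction to *Isl1*. The hemispheres gave -0.62 and -0.03 in the control and -0.32 and -0.12 in the KO, so the size of this difference varied widely within a section, and it turned to 0.062 in the control when the outlines were drawn 10 percentage points tighter.

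*Meis2* was already high in the germinal zone. The control values were 82564, 98068, 102485, 106179 and 104837 CPM, and the KO values 111113, 114866, 125014, 119046 and 118083 CPM. The core exceeded the germinal zone by 1.27-fold in the control and 1.06-fold in the KO. In hemisphere 2 of the KO the order was the other way, with a log2 ratio of -0.03.

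Read from the germinal zone to the core, *Foxp1* differed by 10.9-fold in the control and 10.0-fold in the KO, *Ebf1* by 7.36-fold and 4.49-fold, and *Isl1* by 2.25-fold and 1.70-fold. Past 2-fold were 3 of the 4 genes in the control and 2 in the KO. This is a common pattern, since 48.6% of 286 control and 39.6% of 482 KO panel genes were past 2-fold higher in the core. Most of the 10 further striatal genes not used for the outlines were higher in the core in the same comparison. In the control 7 were past 2-fold higher and 2 lower, and in the KO 6 higher and 2 lower. The receptor *Drd1* (log2 ratio 5.93 in the control, 5.05 in the KO) and the peptide precursor *Pdyn* (5.21 and 4.82) were higher in the core, while the zinc finger factors *Sp9* (-2.12 and -2.07) and *Sp8* (-3.00 and -2.91) were higher in the germinal zone, and *Gad2*, which encodes a GABA-synthesizing enzyme, was near 0 (0.07 and -0.22).

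**Figure D2:**
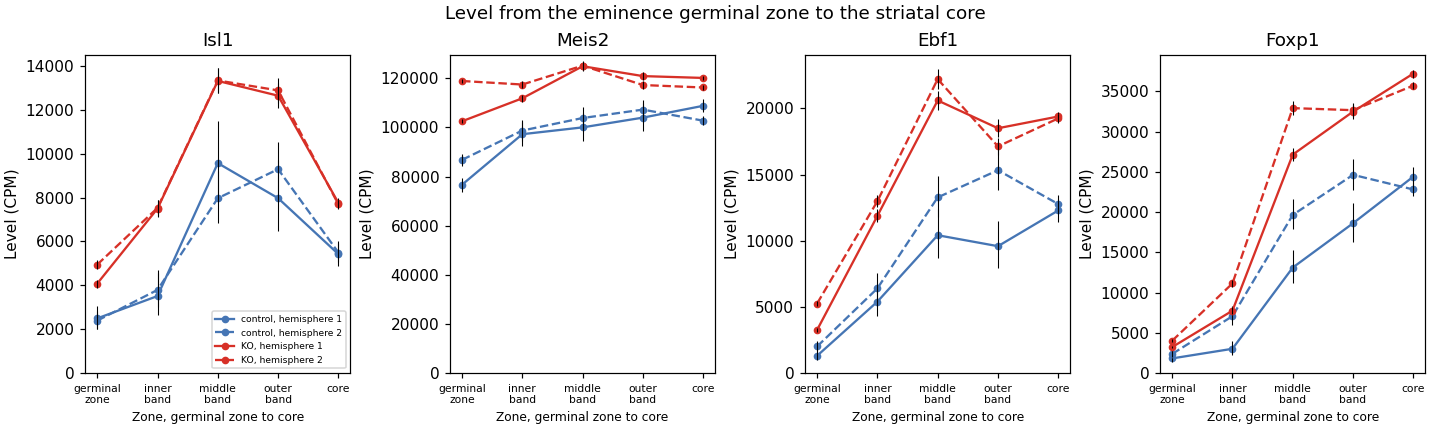
Level in CPM (y) of each gene in the 5 zones from the eminence germinal zone to the striatal core (x), for the 2 hemispheres (solid and dashed) of the control (blue) and KO (red) section; bars are 95% Poisson intervals. *Isl1* peaked in the middle or outer band in all 4 hemispheres, *Foxp1* was low up to the inner band, and *Meis2* was high throughout.

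The highest *Meis2* levels formed a patch where the germinal zone meets the inner band. Bins with a smoothed level of at least 160000 CPM covered 0.20 mm2 in the control (550 cells) and 0.351 mm2 in the KO (4104 cells). Of these cells 66% and 61.7% lay in the germinal zone, most others in the inner band, and 0 in the core. The patch was chosen by *Meis2* itself, whose level there, 193995 and 194705 CPM, is therefore only a description. *Foxp1* stood at 7162 and 12457 CPM in it, 3.26-fold and 2.92-fold below the core. *Ebf1* stood at 6818 and 15566 CPM in it, 1.85-fold and 1.24-fold below the core. Both were above their levels in the whole germinal zone, 2138 and 3634 CPM for *Foxp1* and 1711 and 4303 CPM for *Ebf1*. *Isl1* stood at 8264 and 11364 CPM, above its core level by a log2 ratio of 0.60 (interval 0.24 to 0.94) and 0.56 (0.49 to 0.63). The panel genes with the highest ratio of patch to rest of the brain were led by *Pou3f1*, a POU-domain factor (6.90-fold and 5.61-fold). *Slc18a2*, the vesicular monoamine transporter (6.57-fold from only 14 transcripts, and 5.40-fold), *Sp9* (5.37-fold and 4.10-fold) and *Drd2* (4.84-fold and 4.14-fold) followed. The last 2 were not particular to the patch. *Drd2* stood at 8057 and 7586 CPM in it, against 8468 and 8320 CPM in the core. *Sp9* stood at 14668 and 12653 CPM in it, and made up 1375 of 88852 control and 13006 of 1007190 KO panel transcripts of the germinal zone.

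Cells of the core were sorted by their markers into direct-type-like (*Tac1*, *Drd1*, *Pdyn*, *Chrm4*, *Oprm1*) and indirect-type-like cells (*Drd2*, *Adora2a*, *Penk*, *Gpr6*, *Sp9*), with at least 3 transcripts from at least 2 genes of a list and at least 4 times the section's mean share. The shallow control section gave 195 and 360 such cells in the core and the KO section 2215 and 1070. The depth of the cells differed with these numbers, which are not compared between the sections. In each section all 5 markers of a list were among the 6 genes with the highest fold in its class. The selection by these same genes sets this outcome, so it is no evidence for the classes.

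*Isl1* stood higher in direct-type-like than in indirect-type-like cells, at 4278 against 2283 CPM in the control and 6954 against 4783 CPM in the KO. The control log2 ratio, from 50 and 41 transcripts, was 0.91 (interval 0.04 to 1.78), and the KO ratio was 0.54 (0.40 to 0.68). The control interval spanned 0 in either hemisphere alone (-0.58 to 2.72 and -0.22 to 1.89) and with a minimum of 50 transcripts per cell (-0.21 to 1.87). It also spanned 0 with 4 marker transcripts in place of 3 (-0.08 to 2.47), without the 1% largest cells and with the marker transcripts left out of the totals. These intervals, too, pair opposite ends of Poisson intervals and are wider than counting error alone requires. That they spanned 0 does not place the control difference within counting error under those settings. In the KO the interval spanned 0 when cells were thinned to 25 transcripts (-0.01 to 0.74). *Ebf1* stood at 9924 against 7016 CPM in the control and 19253 against 12261 CPM in the KO, with ratios of 0.50 (-0.03 to 1.03) and 0.65 (0.56 to 0.74). The control interval of the *Ebf1* ratio, from 116 and 126 transcripts, spanned 0. It pairs opposite ends of the Poisson intervals and so is wider than counting error alone requires. Spanning 0 with such an interval does not place the *Ebf1* difference within counting error.

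*Foxp1* and *Meis2* differed little between the classes. *Foxp1* stood at 18821 against 21882 CPM in the control and 35297 against 37169 CPM in the KO, with log2 ratios of -0.22 (interval -0.56 to 0.12) and -0.07 (-0.13 to -0.02), the latter with an interval that spanned 0 in KO hemisphere 2 and after thinning. *Meis2* stood at 95132 against 96270 CPM in the control and 118253 against 126707 CPM in the KO, with ratios of -0.02 (-0.17 to 0.14) and -0.10 (-0.13 to -0.07). None of the 4 genes reached 2-fold here, though the control *Isl1* ratio passed it with cells thinned to 25 transcripts (1.63, 0.20 to 3.13), with 4 marker transcripts (1.19) and in hemisphere 1 (1.04). Few panel genes were past 2-fold, the 10 markers left out. In direct-type-like cells 4.11% of 73 control and 2.42% of 414 KO genes were higher, and 5 of the 73 and 16 of the 414 were lower. Of the further striatal genes not used for the classes, 6 could be counted in the control and 8 in the KO, with a median log2 ratio of 0.08 and 0.00. The receptor gene *Gpr149* was past 2-fold higher in the control, at 1.12, and stood at 0.84 in the KO. *Sp8* was past 2-fold lower in the KO, at -1.30, and had too few transcripts to be counted in the control. The others that could be counted lay within 2-fold, among them *Rxrg*, which encodes a retinoid receptor, at 0.38 and 0.33, and *Gad1*, which encodes a GABA-synthesizing enzyme, at -0.03 and -0.34.

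In the middle and outer band together the KO section held 448 direct-type-like and 580 indirect-type-like cells. *Isl1* again stood higher in the first, at 14167 against 8607 CPM, and *Ebf1* at 19424 against 14271 CPM. *Meis2* stood lower there in direct-type-like cells, at 118746 against 150691 CPM, a log2 ratio of -0.34 (interval -0.40 to -0.29). The control held only 18 and 39 such cells, with a *Meis2* ratio of -0.64 (-1.13 to -0.17), while its intervals for the other 3 genes spanned 0.

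Both classes were also set against the core cells with no class, with all 10 marker genes left out of the totals. *Isl1* stood lower in indirect-type-like cells by a log2 ratio of -1.35 in the control and -1.12 in the KO, and *Ebf1* by -0.89 and -0.99. Direct-type-like cells stood at -0.48 and -0.61 for *Isl1* and -0.43 and -0.37 for *Ebf1*. The control interval of the first of these spanned 0 (-1.01 to 0.01). *Foxp1* and *Meis2* were lower in direct-type-like cells too, at -0.33 and -0.23 for *Foxp1* and -0.15 and -0.12 for *Meis2*. In indirect-type-like cells *Foxp1* stood at -0.07 and -0.12 and *Meis2* at -0.09 and 0.01, with intervals that spanned 0 for *Foxp1* in the control and *Meis2* in the KO.

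Core cells with a transcript of an indirect-type marker were compared with those without, the marker itself left out of the totals. *Ebf1* was lower with each of the 5 markers in both sections, from -0.55 to -0.38 in the control and from -0.61 to -0.37 in the KO, with all 10 intervals below 0. *Isl1* was lower with each of them too, from -1.05 with *Adora2a* to -0.21 with *Gpr6* in the control and from -0.73 with *Penk* to -0.43 with *Gpr6* in the KO, with 9 of 10 intervals below 0, the exception being *Gpr6* in the control. With direct-type markers no gene was higher throughout. *Isl1* ratios ran from -0.36 with *Drd1* to 0.33 with *Oprm1* in the control, and in the KO from -0.41 with *Pdyn* over -0.39 with *Tac1* and -0.30 with *Drd1* to 0.10 with *Oprm1*. *Ebf1* ratios with direct-type markers ran from -0.22 with *Pdyn* to 0.23 with *Chrm4* in the control. In the KO *Ebf1* was lower with *Tac1* (-0.31), *Pdyn* (-0.21) and *Drd1* (-0.11) and higher with *Oprm1* (0.12) and *Chrm4* (0.15), with all 5 intervals clear of 0. *Foxp1* ratios lay between -0.21 and 0.08 and *Meis2* ratios between -0.20 and 0.06 over all 10 markers and both sections.

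**Figure D3:**
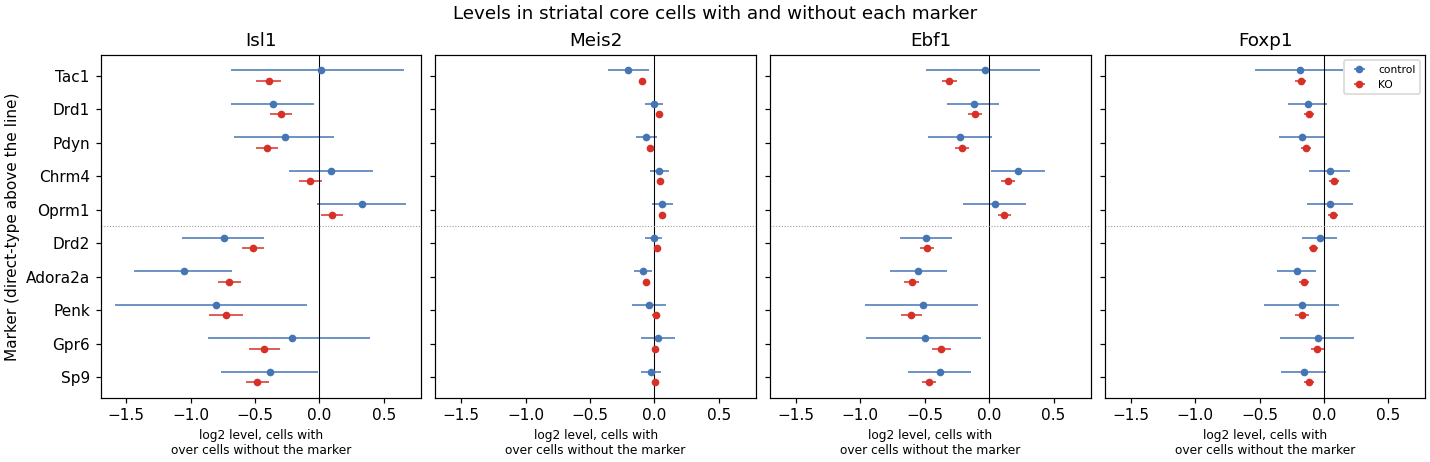
Log2 ratio (x) of the level of each gene in striatal core cells with over those without a transcript of the named marker (y). Blue is the control and red the KO section. Points are ratios, bars are ratio intervals from opposite ends of the Poisson intervals, and direct-type markers stand above the dotted line. *Isl1* and *Ebf1* lay below 0 with all 5 indirect-type markers, while *Meis2* lay close to 0 with nearly every marker.

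To set shares of cells side by side, each cell was thinned to 25 transcripts, and 64649 cells of the control and 10432 of the KO had too few and were dropped. In the thinned core cells (3828 control, 7577 KO), *Isl1* was found in 11.7% of control cells (exact binomial interval 10.7 to 12.7) and 18.6% of KO cells (17.7 to 19.5). Before thinning, these shares were 18.7% and 58.6%. *Isl1* was found in 23 of 191 thinned direct-type-like cells of the control and 15.4% of those of the KO, against 3.58% and 12.5% of indirect-type-like cells. *Ebf1* was found in 22.5% and 38.5% of direct-type-like cells and in 15.8% and 25.4% of indirect-type-like cells. *Foxp1* was found in 36.1% and 57.7% of the first and 42.4% and 59.2% of the second, and *Meis2* in over 90% of both.

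Cells of a class outside the nervous lineage were set beside these shares. That they lack the 4 genes was not shown, and since *Foxp1* is known to be made by monocytes and macrophages, its share in them is not a background level. Among microglia-like or macrophage-like cells outside the brain, with a median of 54 transcripts per cell in the control and 147 in the KO, the thinned shares were 0.375% and 0.736% for *Isl1*, 2.63% and 3.59% for *Ebf1*, 24 of 533 cells and 8.37% for *Foxp1*, and 4.88% and 6.44% for *Meis2*. Inside the KO core the 51 thinned cells of that class had shares of 17.6% for *Isl1*, 17.6% for *Ebf1*, 49.0% for *Foxp1* and 84.3% for *Meis2*. Their intervals were wide, from 8.40 to 30.9% for *Isl1* and *Ebf1*. How far transcripts of neighbouring cells enter an outline, and their part in the ratios between classes, was not tested.

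Detection of 1 gene with another in the thinned core cells was examined for all 6 pairs. With the seed used, the odds ratio was above 1 for every pair in both sections, but its interval spanned 1 for 4 of 6 control pairs and 1 of 6 KO pairs. Which intervals spanned 1 depended on the seed. With another, the control intervals of *Isl1* with *Ebf1* (1.005 to 1.56) and *Meis2* with *Ebf1* (1.04 to 1.72) lay above 1. *Ebf1* was found in 29.6% of control core cells with *Foxp1* and 23.9% without it, and in 41.4% and 33.3% in the KO, an odds ratio of 1.34 (interval 1.16 to 1.54) and 1.42 (1.29 to 1.56). *Isl1* was found in 13.2% of control cells with *Ebf1* and 11.1% without it, and in 20.3% and 17.5% in the KO, an odds ratio of 1.21 (0.97 to 1.50) and 1.19 (1.06 to 1.34). With another random seed for the thinning, the *Isl1* and *Meis2* pair stood at 0.92 in the control (0.67 to 1.27) and 1.20 in the KO (0.97 to 1.50), so no direction is read from it. The sizes also depended on the depth to which cells were thinned: at 50 transcripts the *Isl1* and *Meis2* pair stood at 0.86 in the control and 2.22 in the KO. At that depth the control interval of the *Ebf1* and *Foxp1* pair spanned 1 (odds ratio 1.26, 0.97 to 1.64). The odds ratios are given as a description.

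Across the depth of the pallial region, divided into 5 parts from the surface to the inner edge, *Meis2* was highest at the inner edge and *Foxp1* lowest there. *Meis2* stood at 5658, 15104, 14411, 29047 and 61120 CPM from the surface inward in the control and at 11638, 18069, 23699, 58878 and 87310 CPM in the KO. *Foxp1* stood at 1739, 2767, 1532, 1396 and 1123 CPM in the control and at 4594, 3548, 2206, 1732 and 1344 CPM in the KO. The outermost part thus held the highest *Foxp1* level in the KO, and the part below it in the control, in both hemispheres of each section. In control hemisphere 1 the interval of that part (1672 to 2673 CPM) overlapped those of part 3 (1461 to 2344) and part 4 (1371 to 2312). The control interval at the inner edge (869 to 1429 CPM) likewise overlapped that of part 4 (1177 to 1645). *Isl1* stayed between 506 and 762 CPM in the control and 463 and 722 CPM in the KO, and *Ebf1* between 110 and 477 CPM and between 438 and 645 CPM.

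**Figure D4:**
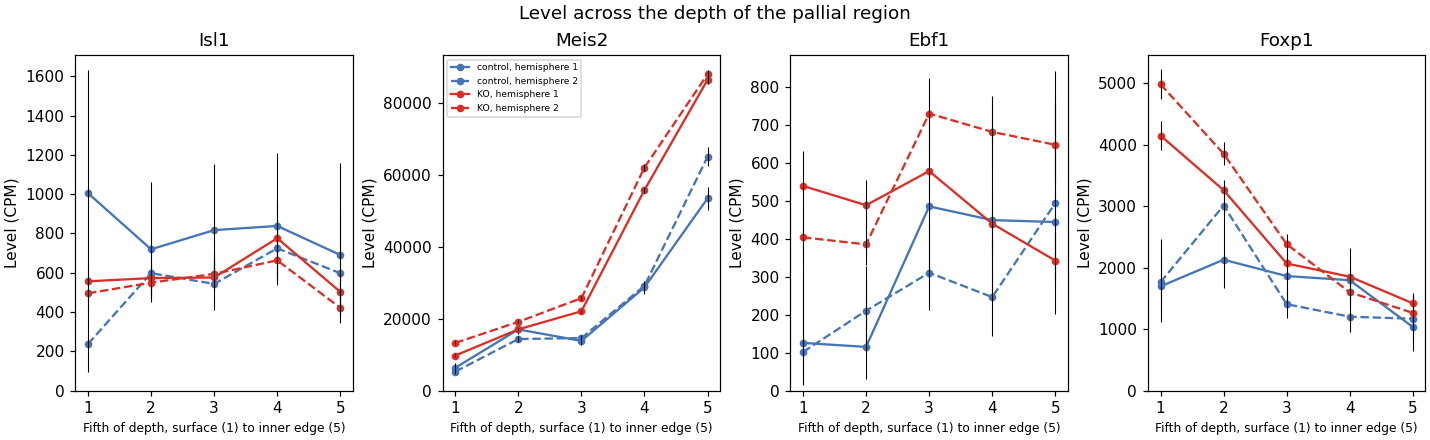
Level in CPM (y) of each gene in 5 parts of the depth of the pallial region (x), from the surface (1) to the inner edge (5), for the 2 hemispheres (solid and dashed) of the control (blue) and KO (red) section; bars are 95% Poisson intervals. *Meis2* was highest at the inner edge in all 4 hemispheres, and the vertical scales differ between the genes.

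Among cortical classes *Meis2* was highest in those scored by progenitor genes. In radial glia-like cells of the pallial region it stood at 56512 CPM in the control and 81341 CPM in the KO. In cells scored by *Eomes*, a gene of intermediate progenitors, and *Sstr2*, which stay unnamed with only 2 markers on the panel, it stood at 59314 CPM (52 cells) and 88720 CPM. In cells with upper-layer or immature projection neuron markers it stood at 40820 and 57410 CPM, in deep-layer-like cells at 20206 and 26035 CPM, and in MGE interneuron-like cells at 8377 and 13468 CPM. *Foxp1* stood at 2274 and 3505 CPM in deep-layer-like cells and 2206 and 2488 CPM in upper-layer or immature cells. In the KO the deep-layer level was the higher, with intervals of 3375 to 3640 and 2370 to 2610 CPM, whereas in the control the intervals overlapped.

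*Isl1* was also found in the brain outside striatum and cortex, at 1685 CPM in the control and 3757 CPM in the KO over the remaining brain. The highest *Isl1* level of a class there was that of 250 KO cells with markers of cholinergic neurons (among them *Chat*, *Slc5a7* and *Ngfr*), at 7113 CPM (interval 6406 to 7876), with *Ebf1* at 750 CPM and *Foxp1* at 1442 CPM. Its interval overlapped that of 113 direct-type-like cells found there, at 6724 CPM (5710 to 7866). The whole control section held 39 cells of the cholinergic class, with 10 *Isl1* transcripts. In KO cells with these markers outside the brain *Isl1* stood at 295 CPM.

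Outside the brain, in the tissue around it, *Isl1* was low at 339 and 404 CPM and *Meis2* at 2848 and 3750 CPM, while *Ebf1* (1134 and 2097 CPM) and *Foxp1* (2482 and 3813 CPM) exceeded their pallial levels. Of the 5 non-neural classes, *Ebf1* was highest in mural-like cells, at 2660 CPM in the control and 3514 CPM in the KO, followed by endothelial-like cells at 1687 and 3005 CPM. In the control the intervals of these 2 classes overlapped, from 2145 to 3263 and from 1248 to 2230 CPM. *Foxp1* stood at 3167 and 5557 CPM in endothelial-like and at 2937 and 5063 CPM in connective-like cells. Against all other cells outside the brain pooled, endothelial-like cells stood higher in *Ebf1*. The control log2 ratio was 0.61 (interval 0.06 to 1.12) and that of the KO 0.56 (0.40 to 0.72). The control interval spanned 0 with 2 or 4 marker transcripts in place of 3 (-0.09 to 0.96 and -0.01 to 1.15). For *Foxp1* the ratios were 0.37 (-0.01 to 0.74) and 0.59 (0.47 to 0.70). *Meis2* was lower in them, at -1.46 and -0.92.

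The levels of the non-neural classes differed by place. Endothelial-like cells stood at 1067 CPM of *Meis2* outside the brain, 5474 CPM in the pallial region and 41008 CPM in the striatal core of the control, and at 2040, 12622 and 50105 CPM in the KO. Their *Foxp1* level in the core, 14296 and 20623 CPM, was likewise below that of the core as a whole and above that outside the brain. The 52 microglia-like or macrophage-like cells of the KO core stood at 9727 CPM of *Isl1* and 35382 CPM of *Foxp1*, against 294 and 3340 CPM outside the brain. How far the values inside the brain come from neighbouring cells was not tested.

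**Figure D5:**
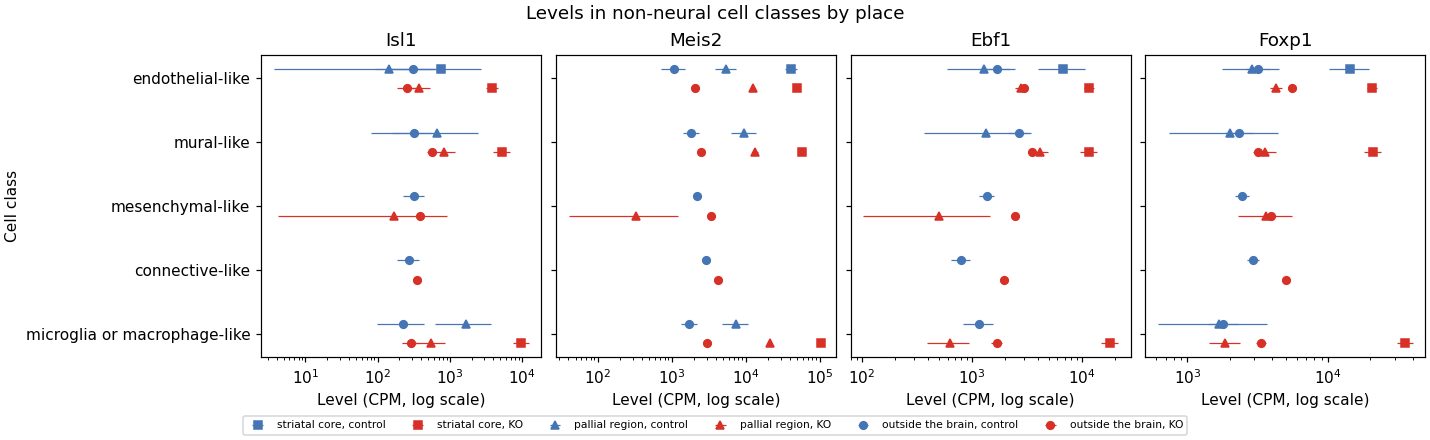
Level in CPM (x, log scale) of each gene in 5 non-neural cell classes (y) in the striatal core (squares), the pallial region (triangles) and outside the brain (circles) of the control (blue) and KO (red) section; bars are 95% Poisson intervals, and a class is shown in a place with at least 30 cells and 1 transcript. Where a class was shown in the core, its level there was the highest of the places shown. For *Isl1* in control endothelial-like cells this rests on few transcripts. Thinned, 1 of 50 such core cells held it, with an interval (0.05 to 10.6%) that overlapped that outside the brain (0.25 to 2.29%).

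The genes whose pattern over the section was most like each of the 4 were found by Spearman's rho over 1327 control and 1396 KO bins of 100 µm, averaged over the sections; bins share cells' surroundings and depth, and rho is a description. For *Isl1* these included the GABAergic genes *Gad2* (0.67), *Slc32a1* (0.62) and *Gad1* (0.59), then *Drd2* (0.59). For *Meis2* they included *Pou3f2* (0.66), *Igfbpl1* (0.65), *Bcl11b* (0.65) and *Dscaml1* (0.63). For *Ebf1* they included *Rxrg* (0.50), *Foxp1* (0.48), *Ptprm* (0.47) and *Crabp1* (0.44). For *Foxp1* they were *Ebf1* (0.48), *Foxp2* (0.42), *Chrm1* (0.42), *Adora2a* (0.39) and *Rxrg* (0.36). Among the 4 genes themselves, rho was 0.45 in the control and 0.51 in the KO both for *Ebf1* with *Foxp1* and for *Isl1* with *Meis2*, and lower for the other pairs.

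All 4 genes stood higher in the KO than in the control section, both in the core and over the whole section. In the core the KO exceeded the control by 1.41-fold for *Isl1* (log2 ratio 0.50, interval 0.38 to 0.62), 1.13-fold for *Meis2* (0.17, 0.14 to 0.20), 1.53-fold for *Ebf1* (0.62, 0.54 to 0.69) and 1.56-fold for *Foxp1* (0.64, 0.58 to 0.70). None reached 2-fold, which 5.51% of 490 panel genes did upward and 4.69% downward, and 90% of panel genes lay between -0.97 and 1.07, around a median of -0.01. Of the 18 further striatal genes, 2 were past 2-fold higher (*Tac1* at 1.80 and *Foxp2* at 1.76) and 2 past 2-fold lower (*Chrm4* at -1.03 and *Gpr149* at -1.28), with a median of -0.02.

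Over the whole section the ratios were larger, at 1.90-fold for *Isl1*, 1.54-fold for *Meis2*, 1.93-fold for *Ebf1* and 1.79-fold for *Foxp1*, all under 2-fold, against 4.4% of 500 panel genes past 2-fold higher and 1.4% past 2-fold lower around a median of 0.13. With a minimum of 50 transcripts per cell in place of 20, all 4 genes passed 2-fold over the whole section. Their log2 ratios were 1.58, 1.31, 1.32 and 1.21. Of panel genes 11.6% passed 2-fold higher and 3.6% lower, around a median of 0.20. Whole-section ratios mix places whose share differed: the eminence germinal zone gave 88852 of 2320422 control and 1007190 of 13387158 KO panel transcripts. A higher minimum also acts unevenly, with control medians per kept cell of 26 in that zone, 34 in the core and 47 outside the brain. The part of this in the ratios was not tested. On imaging plane 0 alone the whole-section ratios were 0.59, 0.27, 0.69 and 0.70. These count decoded molecules in cells or not, without a minimum per cell, so more than the plane differs from the ratios above. By place the ratios were not uniform. *Ebf1* was past 2-fold in the germinal zone (2.52-fold) and the inner band (2.09-fold) and stood at 1.32-fold in the outer band. In the germinal zone its level also varied within each section. It stood at 1299 and 2004 CPM in the control hemispheres and at 3253 and 5249 CPM in the KO hemispheres. Of the panel genes, 9.5% of 421 were past 2-fold higher in the germinal zone and 5.23% lower, and in the inner band 13.3% of 346 higher and 5.49% lower. *Isl1* was past 2-fold in the inner band (2.05-fold) and the remaining brain (2.23-fold), where 6.2% of 500 panel genes were past 2-fold higher and 2.4% lower. In the pallial region, with 5% higher and 3% lower, its ratio was -0.16 with an interval that spanned 0 (-0.38 to 0.07). *Meis2* was 1.61-fold higher in the pallial region, where the proliferation gene *Top2a* also stood higher in the KO, at 10552 against 3640 CPM; its part in the *Meis2* ratio was not tested. In the small striatal rim the *Ebf1* level varied within the control section, at 398 CPM (1 transcript) and 4105 CPM in its hemispheres against 1699 and 1218 CPM in those of the KO, so no direction is read from it. These are ratios of 1 section to 1 section, and the median number of panel transcripts per kept cell, 34 in the control and 109 in the KO, differed with them.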

How the data were processed

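MERFISH on the MERSCOPE platform (Vizgen Pan Neuro panel) was analysed for 1 control and 1 KO section. The deposited values are unnormalized counts, for each gene and each segmented outline, that the authors obtained from decoding and segmentation on the instrument; the segmentation model is not given in the sources used here. Cell positions and volumes and the list of molecules over 7 imaging planes were deposited with them.

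Computation used pandas 2.3.3, scipy 1.17.1, numpy 2.4.6 and matplotlib 3.10.9 under Python 3.11.15. A cell entered with 20 or more panel transcripts, and the 50 blank barcodes were left out of totals. Places were outlined on a grid of 25 µm with Gaussian smoothing (SD 50 µm), from the share of striatal, pallial, germinal and connective marker lists, as a percent of the 99th percentile of the section: 30% for striatal, pallial and germinal outlines, 50% for the core, and 20% for tissue outside the brain. The eminence was the germinal part with *Dlx1* at or above 20% and pallial genes below it. Bins up to 600 µm from core and germinal zone in sum formed the band. Of 19 class lists, a cell took the one with the highest fold over the section mean, with at least 3 transcripts, 2 genes and 4-fold; no doublet caller was run. The grid, levels and scoring were decided with both sections already in view. The 4 genes and all lists were chosen with earlier results of these data known.

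Named were the 4 genes, the panel's marker genes, the 5 genes with the highest mean rho for each of the 4 (bins of at least 200 transcripts), and further striatal genes past 2-fold. Some genes that this rule takes are not reported here. Panel genes were counted where both sides held at least 50 transcripts together. Other genes named, and the patch of high *Meis2*, were chosen after their values were seen. Ratios and classes were checked on simulated counts. The cells drawn for the class check had a depth near that of the KO section, so it does not cover classes in the shallower control. Control cells were the shallower (median 34 against 109 panel transcripts in kept cells), so control values have the wider intervals.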

Additional observations from a re-analysis of the deposited data

How the results depend on the processing

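Of 256 alternative values for 60 results, 158 stayed within the counting interval of the reported value, 95 lay outside it in the same direction or on a ratio not told from no difference, and 3 turned direction. The cause was not tested. With 1 section per group, there was no replicate to leave out, and no paired analysis was possible because each group held 1 section. Values below are log2 ratios unless called odds ratios. The control section limits precision: it held fewer transcripts per cell, and sections, runs and genotypes cannot be told apart.

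For the middle and outer band over the core, outlines 10 points lower and higher gave 0.19 and 1.05 for *Isl1* in the control and 0.45 and 0.92 in the KO, -0.10 and 0.14 for *Meis2* in the control and -0.016 (turned) and 0.13 in the KO, -0.34 and 0.19 for *Ebf1* in the control and -0.27 and 0.21 in the KO, and -0.76 and 0.062 (turned) for *Foxp1* in the control and -0.58 and -0.048 in the KO. Control hemisphere 1 gave -0.093 for *Meis2*, -0.30 for *Ebf1* and -0.62 for *Foxp1*, control hemisphere 2 gave -0.031 for *Foxp1*, and the KO hemispheres gave -0.32 and -0.12 for *Foxp1*.

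For the core over the germinal zone, lower outlines gave 0.53 for *Meis2* and 3.89 for *Foxp1* in the control, and 0.21 and 3.44 in the KO. Higher outlines gave 3.80 for *Foxp1* in the control, and 0.14 for *Meis2*, 2.72 for *Ebf1* and 3.75 for *Foxp1* in the KO. Hemisphere 1 of the control gave 0.51 for *Meis2*, 3.24 for *Ebf1* and 3.75 for *Foxp1*, and hemisphere 2 gave 0.24 for *Meis2*. The KO hemispheres gave 0.93 and 0.64 for *Isl1*, 0.23 and -0.032 (turned) for *Meis2*, 2.58 and 1.87 for *Ebf1*, and 3.53 and 3.16 for *Foxp1*.

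For the core over the pallial region, lower and higher outlines gave 2.11 and 2.32 for *Meis2* in the control, and in the KO 3.87 and 3.60 for *Isl1*, 1.59 and 2.03 for *Meis2*, and 3.78 and 3.63 for *Foxp1*. A minimum of 50 transcripts per cell gave 2.92 for *Meis2* and 5.04 for *Ebf1* in the control and 1.73 for *Meis2* in the KO, and no minimum gave 1.97 for *Meis2* in the control.

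For direct-type over indirect-type cells in the KO, thinning to 25 transcripts gave 0.36 for *Isl1* and -0.17 for *Meis2*, and leaving the marker transcripts out of the totals, an alternative chosen after seeing the data, gave -0.13 for *Meis2*. Odds ratios of co-detection at 50 transcripts were, in the control, 0.86 for *Isl1* and *Meis2*, 1.63 for *Isl1* and *Ebf1* and 2.14 for *Meis2* and *Ebf1*. In the KO they were 2.22 for *Isl1* and *Meis2*, 1.42 for *Isl1* and *Ebf1*, 1.41 for *Isl1* and *Foxp1*, 7.50 for *Meis2* and *Ebf1*, 5.14 for *Meis2* and *Foxp1* and 2.24 for *Ebf1* and *Foxp1*, and another random seed gave 1.59 for the last pair.

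For KO over control in the core, a minimum of 50 transcripts gave 0.77, 0.29, 0.79 and 0.81 for *Isl1*, *Meis2*, *Ebf1* and *Foxp1*. Imaging plane 0 alone, with molecules in cells or not, gave 0.33, 0.057, 0.46 and 0.53. Cells taken with no minimum gave 0.14 for *Meis2*. Over the whole section, in the same order of genes, a minimum of 50 transcripts gave 1.58, 1.31, 1.32 and 1.21, plane 0 alone 0.59, 0.27, 0.69 and 0.70, all decoded molecules 0.78, 0.44, 0.85 and 0.78, and scaling by the median ratio 0.80, 0.50, 0.82 and 0.71. A minimum of 10 transcripts gave 0.81 for *Isl1*, 0.45 for *Meis2* and 0.87 for *Ebf1*, and no minimum 0.78, 0.40 and 0.86.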
